A study of Homo sapiens with 2 samples.

Results

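The proteasome genes are the protein-coding genes whose symbol begins with PSMA, PSMB, PSMC, PSMD, PSME or PSMG followed by a digit and contains no hyphen. When the transcripts in the expression tables were assigned to genes with the GENCODE v44 annotation, 49 of 19885 protein-coding genes met this definition, and these 49 genes had 460 listed transcripts. By their known place in the complex, 14 encode the 20S core found in most cells (7 alpha subunits, 4 beta subunits without catalytic activity and 3 catalytic beta subunits), 17 encode the 19S cap (6 base ATPases, 3 other base subunits and 8 lid subunits), and 3 encode the catalytic subunits of the immunoproteasome. A further 4 encode core activators, 3 encode assembly factors of the base, 4 encode assembly factors of the core, and 2 (PSMA8 and PSMB11) encode core subunits known from testis and thymus. The remaining 2, PSMC3IP and PSME3IP1, carry matching symbols but encode interacting proteins and are not subunits.

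Total RNA was depleted of ribosomal RNA and sequenced from HEK293 Flp-In T-Rex cells, an established human embryonic kidney line that holds a single recombination site and a tetracycline repressor for inducible transgenes. The libraries form 1 group of 2 replicates from untreated cells grown in high glucose medium, with no knockout or treated libraries to compare. The labels do not state whether the replicates came from separate cultures, so the spread between them may be technical, and with 2 libraries no test was made.

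The proteasome degrades proteins that carry ubiquitin chains. The core is a barrel of alpha and beta rings whose proteolytic sites face an inner chamber, the cap binds and removes the ubiquitin chains, and a ring of ATPases in the base of the cap unfolds the protein and feeds it through the gate formed by the alpha ring. In cells exposed to interferon gamma, PSMB8, PSMB9 and PSMB10 are incorporated in place of the catalytic subunits PSMB5, PSMB6 and PSMB7, which changes the peptides offered to the antigen presentation pathway. When proteasome activity is limiting, the transcription factor encoded by NFE2L1 is known to raise transcription of proteasome genes through antioxidant response elements in their promoters.

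Levels are given in TPM: the deposited normalised count of each transcript was divided by its GENCODE v44 length, summed per gene, and scaled to a total of 1000000 over the transcripts of all protein-coding genes in a library, so that genes of different length can be compared. A difference between genes is described as larger than the spread where the order was the same in each library and the gap between the means was wider than the SDs added together. This spread is that between the libraries only. A shift between libraries that both genes share counts as spread, so a gap can go unseparated although its order holds in both libraries. The estimated counts summed to 25158962 in replicate 1 and 27143860 in replicate 2. Transcripts that matched the annotation held 96.9% and 96.8% of these counts, and gene sums cover the matched transcripts only. As a check of the cell label, of 6 leukocyte markers PTPRC, which encodes CD45, and CD3E were listed at 0 in both libraries and the other 4 were below 1 TPM, while PAX2, a factor of the embryonic kidney, stood at 1.55 and 1.72 TPM. The epithelial keratin KRT18 stood at 91.7 and 90.2 TPM. Of the neurofilament genes, NEFL stood at 44.3 and 61.2 TPM, but NEFM at only 0.535 and 0.792 TPM.

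As the promoters of proteasome genes are known targets of shared transcription factors, RefSeq promoter windows (250 bases before to 50 bases after the start site, GRCh38.p14) were searched on both strands for the antioxidant response element TGACNNNGC and for the CCAAT box. A window was given for 43 of the 49 genes. The antioxidant response element letters were found in 13 of the 43 (30.2%), compared with 14.3% of 15842 protein-coding promoters and 13.6% of 27305 promoters of all genes. CCAAT was found in 21 of the 43 (48.8%), compared with 36.4% of the protein-coding promoters and 35.7% of all promoters. Of the 26 core and cap promoters among the 43, only 5 held the antioxidant response element letters, and 14 held CCAAT. No match of one motif overlapped a match of the other in these windows. The matches describe letters in the windows and do not show binding.

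By role, the antioxidant response element letters were present in 3 of 4 promoters of activators, 2 of 3 of base assembly factors, 2 of 3 of core assembly factors, 2 of 8 of lid subunits, 1 of 6 of base ATPases, 1 of 2 of other base subunits, 1 of 3 of immunoproteasome subunits (PSMB9) and 1 of 3 of beta subunits without catalytic activity (PSMB3). They were in none of the 6 alpha subunit, 2 tissue-restricted and 2 interacting protein promoters and not in the 1 of a catalytic subunit. With so few promoters per role, no role was compared with another. The windows of the activators, PSMB9 and PSMB3 are printed as examples, with CCAAT windows of the alpha subunit genes PSMA3 and PSMA5 beside them. Each is written 5′ to 3′ on the strand of its gene, with the matched letters in capitals (a match on the opposite strand appears as its reverse complement). The windows lie at chr14:24136098-24136126 (plus strand) for PSME1, chr14:24146767-24146795 (minus) for PSME2, chr2:53971009-53971037 (minus) for PSME4, chr6:32854034-32854062 (plus) for PSMB9, chr17:38752627-38752655 (plus) for PSMB3, chr14:58244798-58244822 (plus) for PSMA3 and chr1:109426517-109426541 (minus) for PSMA5.
PSME1: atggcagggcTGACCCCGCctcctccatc
PSME2: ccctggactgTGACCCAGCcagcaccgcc
PSME4: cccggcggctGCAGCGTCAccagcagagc
PSMB9: gggcggggctGCCTCGTCActtgtctcgg
PSMB3: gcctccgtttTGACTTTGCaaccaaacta
PSMA3: gaaaaaggttATTGGttggcagttc
PSMA5: gcgcgttggcCCAATcacctaggcg
Relative to the start site, the antioxidant response element letters began at -86 in PSME1, -175 in PSME2, -34 in PSME4, -148 in PSMB9 and -104 in PSMB3. Of the 26 core and cap genes with a window, the 5 that held these letters had a median level of 142 TPM and the 21 without them a median of 110 TPM. The 14 with CCAAT had a median of 119 TPM and the 12 without it one of 122 TPM. These medians describe few genes in 1 cell line, and no test of them was made.

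Proteasome transcripts were abundant and made up 0.706% and 0.668% of the length-normalised protein-coding total (0.687% ± 0.0272, SD, n = 2). Of the 49 genes, 45 stood at 1 TPM or more in both libraries, compared with 65.1% of all protein-coding genes. The 4 genes below this level were the testis gene PSMA8, the thymus gene PSMB11, the immunoproteasome gene PSMB8 and PSMD5, a chaperone of base assembly. The subunit genes of the core had a median of 224 TPM in replicate 1 and 195 TPM in replicate 2, and those of the cap 104 and 89.0 TPM. The core median was thus 2.16-fold that of the cap (log2 ratio 1.11, with 1.10 and 1.13 in the libraries), a difference larger than the spread of the medians between the libraries. That spread does not measure variation among genes, and the genes overlapped. Core genes had means from 110 to 438 TPM and cap genes from 17.6 to 548 TPM.

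**Figure D1:**
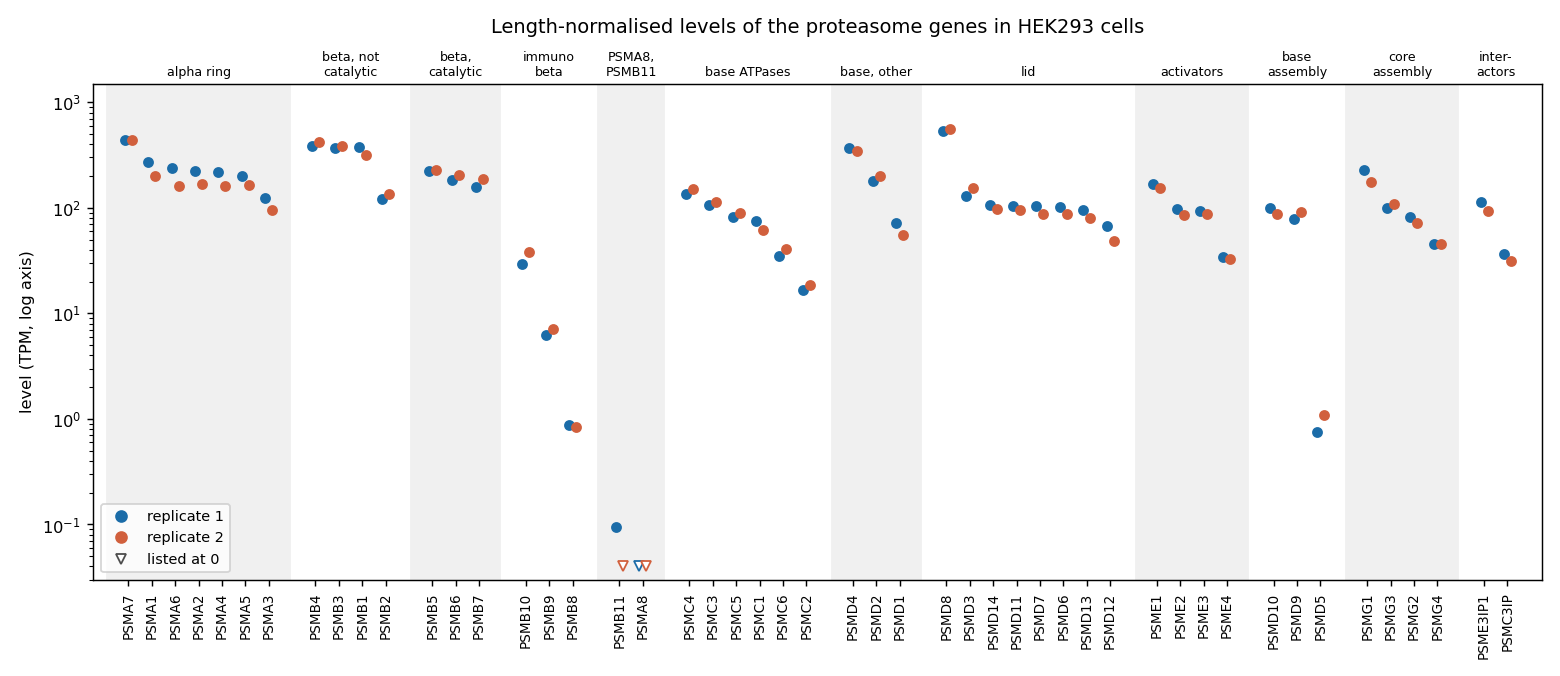
Length-normalised level (TPM, log axis) of each of the 49 proteasome genes, grouped by role; blue and orange points are replicates 1 and 2, and open triangles mark genes listed at 0. Core subunit genes of most cells sit between 95.8 and 440 TPM, whereas PSMB8, PSMD5, PSMA8 and PSMB11 lie near or below 1 TPM.

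Within the core, the highest gene was 3.62-fold and 4.59-fold above the lowest (4.11 ± 0.682, SD, n = 2), and only 3 of the 13 steps between neighbours in the order of levels were larger than the spread. PSMA7 and PSMB4 led this order, and PSMA3 and PSMB2 closed it. Those 3 steps lay between PSMA7 and PSMB4, between PSMB1 and PSMA1, and between PSMB7 and PSMB2, and no other step between neighbours exceeded the spread. With canonical transcript length, PSMA7 and PSMB4 were not separated. The range depends on the transcripts counted: the ratio of highest to lowest was 437 with coding transcripts only, where PSMA5 stood at 1.27 TPM, and 9.14 with canonical transcript length.

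Among the genes of the alpha ring, which forms the gate of the core, PSMA7 stood at 436 and 440 TPM (438 ± 2.83, SD, n = 2). PSMA3 was the lowest, at 124 and 95.8 TPM (110 ± 20.3). The 2 genes differed 3.97-fold, which exceeded the spread. The 5 others ranged from 162 to 269 TPM across both libraries: PSMA1 stood at 269 and 202, PSMA6 at 236 and 162, PSMA2 at 222 and 168, PSMA4 at 218 and 162, and PSMA5 at 199 and 165 TPM. Replicate 1 was the higher library for each of these 5 genes. PSMA1 was the highest of the 5 in both libraries, but with SDs of up to 52.1 TPM no gap among them exceeded the spread. PSMA1, PSMA2 and PSMA6 overlap further protein-coding genes on the same strand, which can share their reads. The gene overlapping PSMA2 held 559 and 506 normalised counts, beside 2529 and 1818 for PSMA2 itself.

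Of the beta subunits without catalytic activity, PSMB4 stood at 387 and 417 TPM, PSMB3 at 372 and 384 TPM, and PSMB1 at 376 and 320 TPM. In this order, PSMB4 did not differ from PSMB3, nor PSMB3 from PSMB1, beyond the spread. PSMB2 was lower, at 120 and 136 TPM (128 ± 11.0, SD, n = 2), 3.14-fold below PSMB4, and this difference was larger than the spread (8.58-fold with coding transcripts only). The median of the 4 genes was 363 ± 15.9 TPM.

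To compare the constitutive with the immunoproteasome subunits, each catalytic gene was paired with the gene whose product takes its place. PSMB5, which encodes the chymotrypsin-like subunit, stood at 225.2 and 226.0 TPM (226 ± 0.583, SD, n = 2). PSMB6, encoding the caspase-like subunit, stood at 185 and 203 TPM (194 ± 13.0). PSMB7, encoding the trypsin-like subunit, stood at 159 and 187 TPM (173 ± 19.3). The constitutive genes thus lay close together: PSMB5 was 1.16-fold above PSMB6 and also above PSMB7, both larger than the spread, whereas PSMB6 and PSMB7, with a ratio of 1.12, were not separated. With canonical transcript length, PSMB5 was no longer separated from PSMB6 (0.957-fold) or PSMB7 (1.08-fold).

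The immunoproteasome genes were lower and spread widely. PSMB8 was at 0.884 and 0.830 TPM, from 13 and 16 estimated counts (rounded), for which exact Poisson 95% intervals, covering counting error only, were 6.92 to 22.2 and 9.15 to 26.0. PSMB9 was at 6.20 and 7.18 TPM (6.69 ± 0.694, SD, n = 2), from 78 and 91 estimated counts. PSMB10 was at 29.1 and 37.9 TPM (33.5 ± 6.21). In both libraries the order was PSMB10, PSMB9, PSMB8, with PSMB10 5.01-fold above PSMB9 and PSMB9 7.80-fold above PSMB8, and both steps were larger than the spread. With coding transcripts only, PSMB10 stood at 14.1 and 5.24 TPM and PSMB9 at 7.66 and 8.67 TPM, so that their order turned in replicate 2 and their difference was not larger than the spread.

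Each immunoproteasome gene was lower than its constitutive counterpart by more than the spread in each setting. PSMB8 was 263-fold lower than PSMB5 (log2 ratio -8.04, with -7.99 and -8.09 in the libraries), and 168-fold lower with canonical transcript length. PSMB9 was 29.0-fold lower than PSMB6 (log2 ratio -4.86, with -4.90 and -4.82). PSMB10 was 5.16-fold lower than PSMB7 (log2 ratio -2.37, with -2.45 and -2.30). The PSMB10 ratio was the least stable: it was 7.85-fold with canonical transcript length and 22.7-fold with coding transcripts only, near the 29.9-fold of PSMB9 below PSMB6 on the latter basis. Together the immunoproteasome genes held 5.98% and 6.94% of the summed level of the 6 catalytic genes (6.46% ± 0.678), most of it from PSMB10. The paired coding sequences were 65.5% identical for PSMB8 and PSMB5, 66.5% for PSMB9 and PSMB6 and 63.0% for PSMB10 and PSMB7, and no stretch of 50 bases was shared within a pair of canonical transcripts.

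The PSMB10 value rested mainly on transcripts that do not encode the subunit. A retained-intron transcript, PSMB10-203, was the leading PSMB10 transcript and held 54.0% and 70.8% of the gene's normalised counts. Restricted to protein-coding transcripts, the share of the immunoproteasome genes was 2.47%. PSMB10 also overlaps a further protein-coding gene on the same strand, which held 113 and 135 normalised counts beside 221 and 275 for PSMB10. PSMB8 and PSMB9 overlap each other on opposite strands, and PSMB9 also overlaps TAP1, which held 1152 and 1192 normalised counts. The strand setting of the quantification is not given in the sources used here, and the part of these overlaps in the values was not tested.

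**Figure D2:**
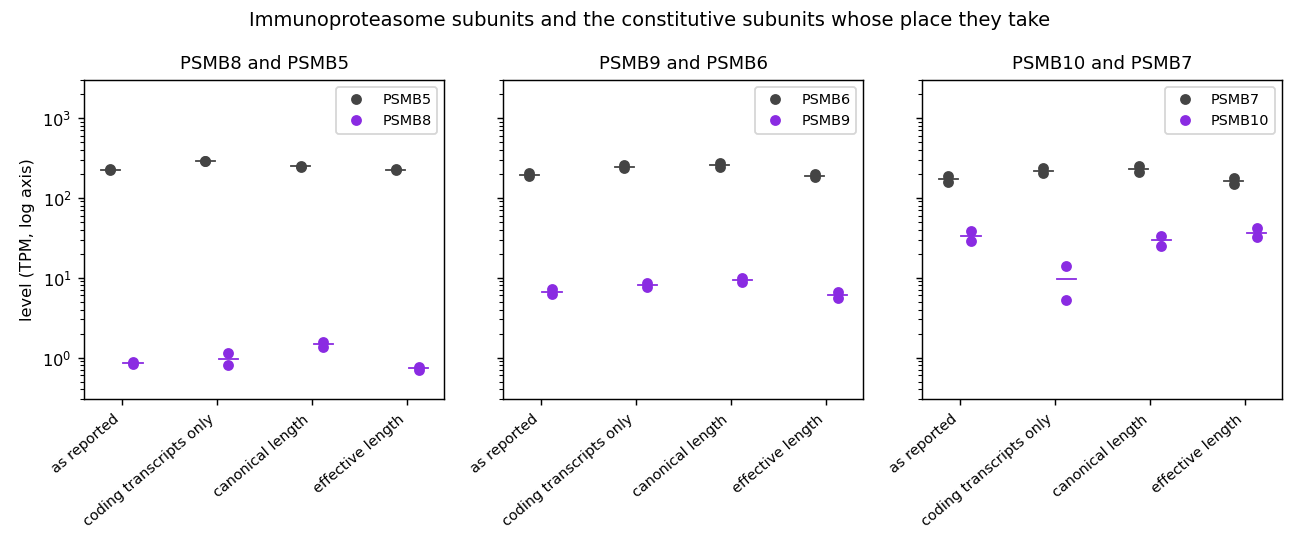
Level in TPM (log axis) of each immunoproteasome gene (purple) beside its constitutive counterpart (grey) under 4 ways of computing the level; points are the 2 libraries and lines their means. PSMB8 and PSMB9 stay below 10 TPM in every setting shown, and PSMB10 moves from 33.5 TPM as reported to 9.69 TPM with protein-coding transcripts only.

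Genes that act with the immunoproteasome in antigen presentation were detected at varied levels. B2M, which encodes the light chain of class I histocompatibility molecules, was at 560 ± 61.7 TPM (SD, n = 2). The peptide transporter genes TAP1 and TAP2 were at 41.6 ± 1.96 and 16.9 ± 0.0457 TPM, and TAPBP, encoding tapasin, was at 66.3 ± 16.3 TPM. The regulators IRF1 and NLRC5, which act in interferon signalling and class I transcription, were at 20.3 ± 4.55 and 11.7 ± 0.421 TPM. All 6 of these genes stood above PSMB9 in both libraries, whereas TAP2, IRF1 and NLRC5 stood below PSMB10 (29.1 and 37.9 TPM) in both. With coding transcripts only PSMB10 stood at 14.1 and 5.24 TPM, and TAP2, IRF1 and NLRC5 were not compared with it on that basis.

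The core subunits of restricted tissues were at or near 0. PSMA8, the testis counterpart of PSMA7, was listed at 0 in both libraries, and 3 counts, the floor used here for a gene listed at 0, would correspond to 0.146 and 0.138 TPM. PSMB11, the catalytic subunit of the thymus, had 2 estimated counts in replicate 1 (0.0943 TPM) and was listed at 0 in replicate 2. PSMA8 and PSMA7 were 73.2% identical in their coding sequence without a shared stretch of 50 bases.

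The genes of the cap covered a wider range than those of the core. The highest cap gene was 31.9-fold and 30.7-fold above the lowest (31.3 ± 0.854, SD, n = 2), and 7 of the 16 steps between neighbours in the order were larger than the spread. With coding transcripts only, the wider range was that of the core (437, against 131 in the cap). Both ends of this order were separated from the middle: PSMD8, PSMD4 and PSMD2 led it, and PSMC6 and PSMC2 closed it. A run of lid genes in the middle, from PSMD14 through PSMD11, PSMD7 and PSMD6 to PSMD13, was not resolved.

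The 6 ATPases form a single ring in which each subunit is present once, but their genes differed 8.12-fold in level (12.8-fold with coding transcripts only). PSMC4 was highest, at 135 and 151 TPM (143 ± 11.4, SD, n = 2), followed by PSMC3 at 107 and 112 TPM and PSMC5 at 81.6 and 89.0 TPM. PSMC1 stood at 75.0 and 61.5 TPM and PSMC6 at 34.7 and 40.5 TPM. With coding transcripts only, PSMC1 stood above PSMC5, at 81.1 and 66.7 TPM against 37.0 and 47.7 TPM. PSMC2 was lowest, at 16.7 and 18.4 TPM (17.6 ± 1.19), and its difference from PSMC6 was larger than the spread. PSMC2 overlaps PMPCB on the same strand, which held 3790 and 2863 normalised counts beside 350 and 276 for PSMC2, and the part of this overlap in the low PSMC2 value was not tested.

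The PSMC1 level depended on how reads were divided between the gene and its processed pseudogenes. PSMC1P1 held 1210 and 941 normalised counts, or 92.2% and 93.6% of the 1312 and 1006 assigned to PSMC1. Of the 50-base words in PSMC1P1, 96.1% also occur in PSMC1 transcripts, so reads that fall within these words cannot tell them apart. Adding the named pseudogenes to PSMC1 placed it at 213 TPM in place of 68.2 TPM, above each of the other ATPase genes. In all, 44 pseudogenes were named after 17 of the proteasome genes. Of these, 20 were listed at 0 in both libraries and 7 had a mean of at least 10 normalised counts, and after PSMC1P1 the next was PSMC1P5, with 146 and 162 counts.

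Among the other base subunits, PSMD4, a ubiquitin receptor, stood at 372 and 349 TPM (361 ± 16.3, SD, n = 2). PSMD2 and PSMD1, the large scaffold subunits, stood at 181 and 202 TPM and at 71.7 and 55.2 TPM. The 3 genes were separated from each other by more than the spread, with PSMD4 5.69-fold above PSMD1. With coding transcripts only, PSMD4 was 2.97-fold above PSMD2 in place of 1.89-fold. ADRM1, encoding another intrinsic ubiquitin receptor of the base, was at 119 ± 26.8 TPM, and SEM1, a small lid subunit whose symbol lies outside the definition used here, was at 224 ± 19.5 TPM.

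PSMD8, a lid subunit, had the highest level of all 49 genes, at 533 and 564 TPM (548 ± 22.2, SD, n = 2). It was separated from PSMD4, the next cap gene, by more than the spread (the level of PSMD4 was 0.658 of that of PSMD8). The remaining lid genes were between 48.9 and 156 TPM: PSMD3 stood at 129 and 156, PSMD14, which encodes the deubiquitinase of the lid, at 107 and 98.1, and PSMD12, the lowest, at 67.3 and 48.9 TPM. PSMD8 was 9.44-fold above PSMD12 (22.0-fold with coding transcripts only). In that setting PSMD12 was no longer the lowest lid gene, as PSMD13 stood at 9.61 and 3.77 TPM. The lid median was 98.4 ± 8.95 TPM, beside 76.8 ± 2.16 for the ATPases and 191 ± 14.9 for the other base subunits.

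The activators are alternative partners that open the core without ubiquitin recognition. PSME1 and PSME2 encode the partner subunits of the interferon-inducible activator PA28 alpha-beta, PSME3 encodes the nuclear PA28 gamma, and PSME4 encodes the large activator PA200. PSME1 stood at 168 and 154 TPM (161 ± 9.49, SD, n = 2), PSME2 at 97.4 and 86.0 (91.7 ± 8.06), PSME3 at 93.1 and 87.3 (90.2 ± 4.06) and PSME4 at 34.5 and 32.4 TPM (33.5 ± 1.48). All pairs but 1 were separated by more than the spread. PSME1 was 1.76-fold above its partner PSME2 (log2 ratio 0.81) and 4.81-fold above PSME4 (log2 ratio 2.27), which became 7.69-fold with coding transcripts only. PSME1 was 1.79-fold above PSME3, 2.85-fold with coding transcripts only and 3.94-fold with canonical transcript length. PSME2 and PSME3 were not separated, with a log2 ratio of 0.02 that had opposite signs in the libraries (0.07 and -0.02). With canonical transcript length, this log2 ratio was 1.10 and larger than the spread, and PSME3 stood 1.71-fold above PSME4 in place of 2.69-fold. PSMF1, which encodes the core inhibitor PI31, was at 117 ± 15.2 TPM.

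Thus PSME1 and PSME2 were expressed at 161 and 91.7 TPM in the same libraries in which PSMB8 and PSMB9, also interferon-inducible genes, stood at 0.857 and 6.69 TPM. PSMB10, the remaining immunoproteasome gene, stood higher, at 33.5 TPM (9.69 TPM with coding transcripts only). PSME1 overlaps EMC9 and PSME2 overlaps RNF31 on the opposite strand, with 320 and 525 normalised counts on average, beside 1863 and 1615 for PSME1 in the libraries and 844 and 714 for PSME2.

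Of the assembly factors of the base, PSMD10 stood at 100.1 and 88.1 TPM and PSMD9 at 78.2 and 90.8 TPM. PSMD5 was at 0.758 and 1.09 TPM (0.926 ± 0.237, SD, n = 2), 102-fold below PSMD10 (374-fold with coding transcripts only, 314-fold with canonical transcript length), from 10.6 and 11.1 normalised counts over its 8 listed transcripts. Its canonical transcript was listed and held 53.4% and 52.4% of these counts. The core assembly factors PSMG1 and PSMG2, which act as a pair, stood at 230 and 177 TPM and at 82.0 and 72.1 TPM. With coding transcripts only their order turned, with PSMG1 at 40.2 and 40.7 TPM and PSMG2 at 76.0 and 63.4 TPM. The second pair, PSMG3 and PSMG4, stood at 99.7 and 108 TPM and at 45.6 and 45.1 TPM. With canonical transcript length this order turned as well, with PSMG3 at 90.3 and 98.7 TPM and PSMG4 at 100.4 and 127 TPM. POMP, the maturation factor of the core, was at 57.6 ± 9.34 TPM. The interacting proteins stood at 36.5 and 31.4 TPM for PSMC3IP, a recombination cofactor, and at 114 and 93.0 TPM for PSME3IP1, which binds PA28 gamma.

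Around the complex, the known transcriptional regulator NFE2L1 was at 181 ± 1.48 TPM (SD, n = 2) and its relative NFE2L2 at 22.4 ± 2.71 TPM. DDI2, the protease that activates the NFE2L1 product, was at 30.1 ± 7.39 TPM and NGLY1, which removes its glycans, at 41.4 ± 5.99 TPM. Of the enzymes that bind the complex, the deubiquitinases UCHL5 and USP14 were at 61.5 ± 10.9 and 41.8 ± 0.532 TPM, and ECPAS, an adaptor of the complex, at 71.7 ± 1.76 TPM. The unfoldase VCP stood at 205 ± 1.26 TPM. UBB and RPS27A, which encode ubiquitin, stood above every proteasome gene, UBB at 2103 and 2084 TPM and RPS27A at 1848 and 1333 TPM in the libraries.

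Agreement between the libraries was then examined on the deposited normalised counts, for genes with a mean of at least 10. None of the 47 proteasome genes above this level differed by more than 2-fold (log2 of count plus 1), compared with 2.77% of 13992 protein-coding genes. At that share very few of 47 genes would pass, so the count does not set these genes apart. The share also takes in genes with lower counts, whereas 44 of the 47 had a mean of at least 100. The direction was uneven: 33 of 47 (70.2%) were lower in replicate 2, where 57.5% of all genes tested were lower. On CPM, which divide by the library total in place of the deposited scaling, 25 of 47 were lower in replicate 2 and 6981 of the 13992 genes tested.

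By role, the alpha ring and the lid differed most between the libraries. The log2 difference of replicate 2 from replicate 1 had a median of -0.48 over the 7 alpha ring genes, all of which were lower, with a range of -0.52 to -0.06. For the lid the median was -0.34, with 7 of 8 genes lower. All protein-coding genes tested had a median of -0.08 and quartiles of -0.31 and 0.20. The catalytic beta genes (median 0.02), the beta genes without catalytic activity (-0.02) and the ATPases (-0.02) were nearer to 0, and the 3 immunoproteasome genes were all higher in replicate 2 (median 0.09). The largest absolute differences were those of PSMA4 (-0.52), PSMD12 (-0.51) and PSMA1 (-0.51). On CPM the median was -0.39 for the alpha ring, with 6 of 7 genes lower in replicate 2, and -0.25 for the lid, with 6 of 8 lower. The ATPases then had a median of 0.06 and all genes tested one of 0.00061, so the directions of the ATPases and of single genes near 0, such as PSMA7, rest on the scaling. In TPM, PSMB8 was lower in replicate 2 (log2 difference -0.09), and PSMC2 was higher (0.14, beside -0.34 on normalised counts). These values compare the 2 libraries and not any condition.

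**Figure D3:**
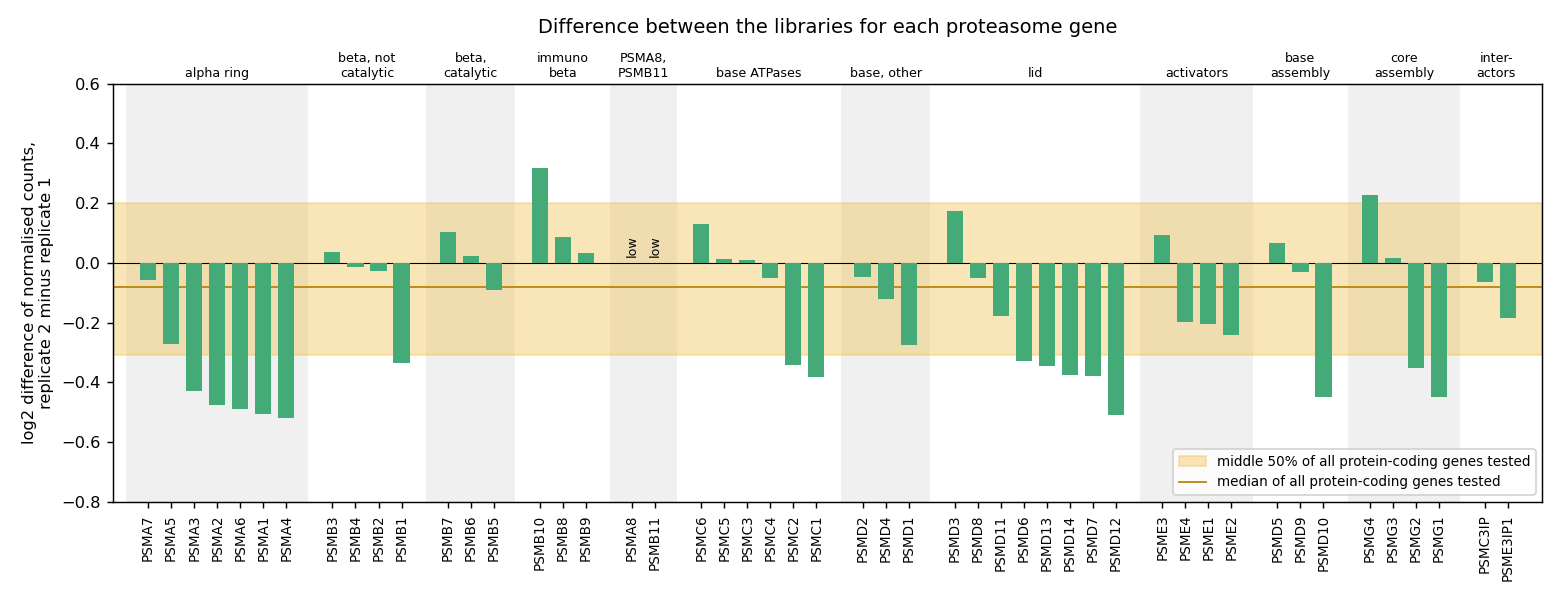
Difference of log2 normalised counts (replicate 2 minus replicate 1) for each proteasome gene, as bars grouped by role; the band and line give the middle 50% and the median of 13992 protein-coding genes, and "low" marks genes under the minimum count. All 7 alpha ring bars and 7 of 8 lid bars point down (6 of 7 and 6 of 8 on CPM), and no bar reaches a 2-fold difference.

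To determine which transcripts carried the counts, transcripts were sorted by their annotated class. Transcripts annotated as protein-coding held 80.2% ± 0.156 (SD, n = 2) of the normalised counts of the proteasome genes, beside 84.8% ± 0.146 for all protein-coding genes. Transcripts annotated for nonsense-mediated decay held 7.11% (5.16% in all genes), those with a retained intron 7.12% (6.71%), and those of coding genes without a defined coding sequence 5.57% (3.23%). The classes come from the annotation of the transcripts and not from the reads.

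The transcript with the highest count was the same in both libraries for 42 of 47 genes with several transcripts, compared with 79.3% of protein-coding genes. That share takes all genes with a total of at least 1 count, whereas 44 of the 47 had a mean of at least 100. No share of all genes at a higher minimum is given here. The 5 genes whose leading transcript differed were PSMA1, PSMA6, PSMC4, PSMC5 and PSMC3IP. PSMC5 was led by PSMC5-221, annotated for nonsense-mediated decay, in replicate 1 (40.4%) and by the coding PSMC5-202 in replicate 2 (41.9%), and PSMC3IP by PSMC3IP-203, of the same decay class, in replicate 1 (40.3%) and by the coding PSMC3IP-204 in replicate 2 (55.1%). The switches of PSMA6 and PSMC4 were between coding transcripts with shares of 34.4% to 44.7%.

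For 6 of the 47 genes (12.8%) the leading transcript by mean count was not annotated as protein-coding, compared with 12.1% of protein-coding genes. Of the 44 genes with a mean of at least 100 counts, the 6 were 13.6%, compared with 8.75%. PSMA5 was led by PSMA5-204, which has no defined coding sequence, with 78.3% and 77.3% of its counts, and coding transcripts held 1.92% ± 0.103 (SD, n = 2). PSMD13 was led by PSMD13-202, annotated for nonsense-mediated decay, with 67.5% and 70.8%, and its coding transcripts held 7.23% and 3.71%. PSMD9-204, also of the decay class, held 47.5% and 45.7% of PSMD9, and the retained-intron PSMG1-205 held 47.8% and 35.0% of PSMG1. PSMA1-203, without a defined coding sequence, held 31.3% and 26.6% of PSMA1, and PSMB10 is described above.

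These shares set the levels of individual genes when only coding transcripts are counted. PSMA5 was then at 1.38 and 1.16 TPM, PSMD13 at 9.61 and 3.77 TPM, PSMD9 at 12.8 and 36.1 TPM and PSMG1 at 40.2 and 40.7 TPM. On this basis PSMB10 (log2 difference -1.22) and PSMD13 (-1.29) differed by more than 2-fold between the libraries, 2 of 46 genes with enough counts (4.35%), compared with 4.79% of protein-coding genes. The core remained above the cap by more than the spread in this setting.

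The canonical transcript named by Ensembl held under 10% of the count for 17 of 47 genes (36.2%), compared with 23.2% of protein-coding genes. Among them was PSMD8, the gene with the highest level, whose PSMD8-209 held 93.6% and 91.8% while its canonical transcript was listed at 0. The version numbers of the canonical transcripts of all 49 genes differed from those in GENCODE v44, and only 9.81% of 19155 canonical transcripts of protein-coding genes carried the same version, so transcript lengths behind the deposited counts may differ from those used here. When the genes with such a low canonical share were left out, an alternative chosen after these values were seen, the core and cap medians were 219 and 99.3 TPM.

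**Figure D4:**
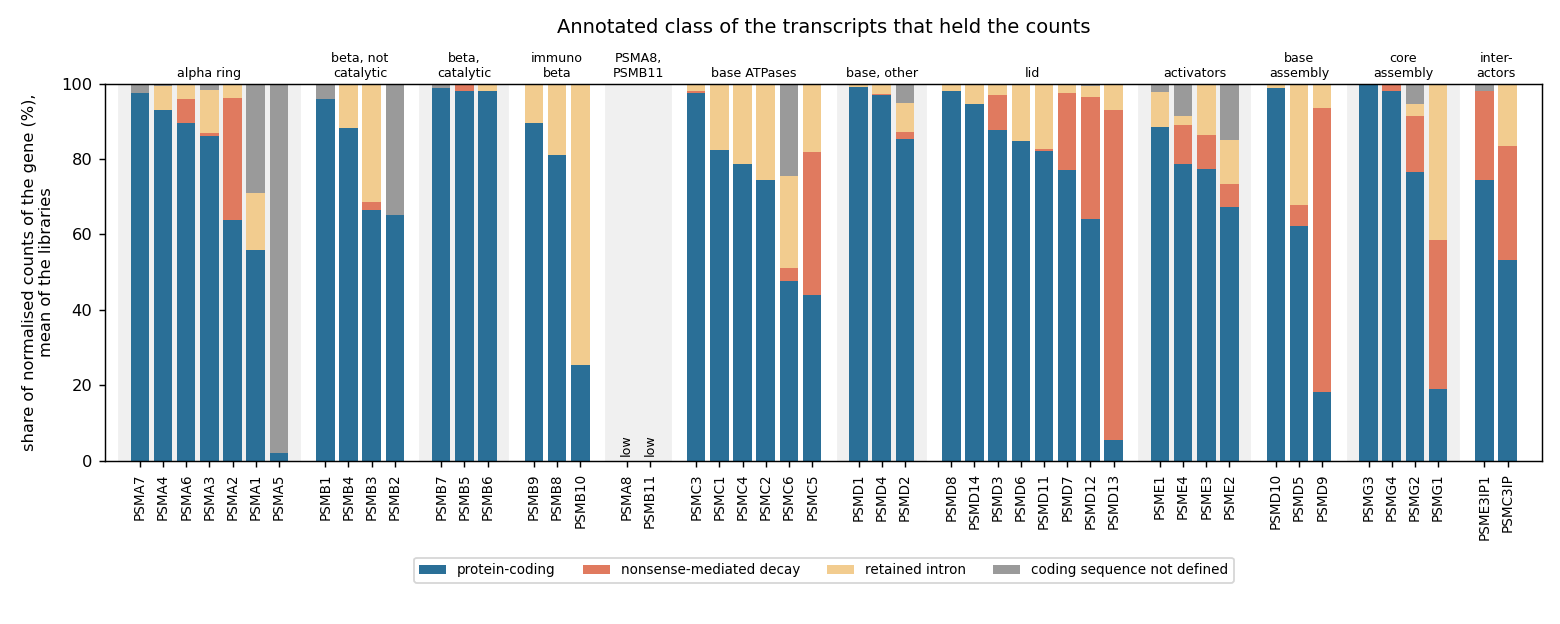
Share of each gene's normalised counts (%, mean of the 2 libraries) held by transcripts of 4 annotated classes, as stacked bars grouped by role; "low" marks genes with too few counts. PSMA5, PSMD13, PSMD9, PSMG1 and PSMB10 have the smallest protein-coding shares, at 1.92% to 25.3%.

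The genes were spread over 17 chromosomes, with 8 each on chromosomes 14 and 17 and 4 each on 1 and 6. At their annotated positions, 30 of the 49 overlapped another gene, 26 overlapped a gene on the opposite strand and 14 overlapped a protein-coding gene on the opposite strand, where the shares among 19885 protein-coding genes were 66.8%, 54.8% and 23.9%. The overlaps were called from whole gene spans, introns included, and shared exons were not examined. Without a stated strand setting, it is open whether reads of opposite-strand partners were told apart where their exons overlap.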

How the data were processed

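Total RNA of 2 HEK293 Flp-In T-Rex libraries (TruSeq, ribosomal RNA depleted) was analysed. The submitters' processing notes name FastQC, STAR 2.7.0d, RSEM 1.3.3 and R 3.6.3, and the study names an Ensembl GRCh38 genome for its sequencing reads. The strand setting is not given in the sources used here. Per the file headers, the authors deposited estimated counts per transcript from RSEM and an EB-Seq-normalised signal, in which all estimated counts of a library are divided by the same size factor (0.945 in replicate 1, 1.08 in replicate 2). The tables list 206696 transcripts, of which 202217 matched GENCODE v44 without version number and 4479 did not. The tables of METTL8 isoforms were not used.

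Levels, leading transcripts and differences were computed with Python 3.11.15, pandas 2.3.3, numpy 2.4.6 and scipy 1.17.1. The levels and the differences between libraries were tested on simulated counts, and the leading transcripts were not. The simulated counts held counting error only, which is less noise than these libraries show. No model was fitted, since 1 group of 2 libraries gives no comparison of conditions. Precision is the SD between libraries, and Poisson intervals (95%) cover counting error only. The libraries differed beyond sampling noise (chi-square over degrees of freedom 27.6) and were kept as separate replicates. The genes, roles and further gene lists were chosen with earlier results of these data known. Named in the text are the highest and lowest gene of each role, all catalytic, immunoproteasome and activator genes, genes below 1 TPM, those with a leading transcript that is not coding or differs between libraries, the 3 with the largest difference between libraries, and others of each role to show its range. A planned comparison of protein sequences was replaced by coding sequences from GENCODE v44, aligned over the canonical transcripts. Promoters are from RefSeq. Some genes of the further lists are not reported here. Alternatives were coding transcripts only, canonical or effective length (length minus 200, at least 50 bases), pseudogenes added, all matched transcripts as denominator, and other filters and pseudocounts.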

Additional observations from a re-analysis of the deposited data

How the results depend on the processing

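The lower level of each immunoproteasome gene than its counterpart, the core above the cap, and the order of PSME1 above the other activators exceeded the spread under all length, transcript and pseudogene settings tried. Medians in TPM moved as follows. With canonical length, they were 441 (beta without catalytic activity), 247 (catalytic beta), 9.43 (immunoproteasome), 67.6 (ATPases), 165 (other base), 114 (lid), 82.4 (activators), 45.9 (base assembly), 100.1 (core assembly), 236 (core) and 114 (cap), the genes held 0.721% of the total, the immunoproteasome share was 5.16%, the highest to lowest ratio was 9.14 in the core and 47.8 in the cap, and PSME2 to PSME3 became larger than the spread (log2 1.10). With coding transcripts only, medians were 346 (beta without catalytic activity), 245 (catalytic beta), 58.1 (ATPases), 149.6 (other base), 69.6 (activators), 24.4 (base assembly) and 63.6 (core assembly), the immunoproteasome share was 2.47%, the ratios were 437 in the core and 131 in the cap, and 2 genes passed 2-fold between libraries. With effective length, medians were 69.0 (ATPases), 172 (other base), 88.3 (lid), 75.4 (base assembly) and 87.3 (core assembly), and the cap ratio was 30.2. With pseudogenes added, the ATPase median was 97.4 and the cap ratio 27.9. With all matched transcripts as denominator, the genes held 0.292% and medians were 82.6, 155, 82.3, 2.84, 32.7, 81.1, 41.9, 38.7, 35.3 and 38.4 for alpha ring, beta without catalytic activity, catalytic beta, immunoproteasome, ATPases, other base, lid, activators, base assembly and core assembly, and 89.1 and 41.2 for core and cap. Without a minimum count, 1 gene (PSMB11) passed 2-fold. With each replicate left out, the log2 ratio of PSME2 to PSME3 ranged between -0.022 and 0.065, and a single library moves a mean of 2 by less than 1 SD by construction. Conditions could not be paired because the libraries form 1 group. Genes were measured in the same libraries, but the SDs behind the spread were added without use of this pairing. Depth limits PSMB8, PSMD5, PSMA8 and PSMB11, each with under 20 estimated counts per library.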
